A study of Mus musculus with 4 samples.

Results

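Lgr4, Lgr5 and Lgr6, the receptors for R-spondins, and Rnf43 and Znrf3, a pair of membrane ubiquitin ligases, were followed in adenomas of ApcMin mice, labelled as colon, with and without the gene Strap. The 5 genes were taken by symbol from deposited tables that hold 17762 genes. Each table gave every listed gene an RSEM expected count, an estimate of the reads it received, and an FPKM, which divides the reads by the length of the transcript and the size of the library. Polyadenylated RNA was sequenced from 2 libraries of ApcMin Strap KO mice and 2 libraries of ApcMin Strap WT mice. All mice were C57BL/6, 110 days old and carried ApcMin, a truncating allele of Apc that causes intestinal adenomas. The series' design text names the mutant mice ApcMin StrapIEKO. The sources used here do not name the promoter behind the deletion or say whether animals were pooled. They also do not say that libraries came from separate animals. The libraries of each genotype differed in Xist and Y-linked transcripts (values below), so they were not repeats of the same RNA. The spread behind each edgeR p value is that between these libraries, combined with the spread of other genes. Library totals ran from 14084814 to 15640931 expected counts.

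R-spondins are secreted proteins that strengthen Wnt signalling. Rnf43 and Znrf3 mark Frizzled receptors and the Lrp co-receptors for removal from the cell surface, and R-spondin bound to an Lgr receptor draws the ligases away, so that more Wnt receptor stays in place. In the intestinal crypt Lgr5 marks cycling stem cells, Lgr4 is found more broadly in the crypt, and Lgr5, Rnf43 and Znrf3 are themselves known targets of beta-catenin. The truncated Apc of ApcMin tumours acts below these receptors, on beta-catenin itself.

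Strap, the targeted gene, had 300 and 364 expected counts in KO replicates 1 and 2, against 2445 and 1724 in WT replicates 1 and 2. Which exons were deleted is not stated by the labels, and the reads left in KO could not be assigned to exons. The 9 epithelial marker genes were listed in all libraries and summed to 14640 and 10660 CPM (counts scaled to a common library size with TMM factors) in KO, against 12450 and 14510 CPM in WT. Fibroblast genes summed to 1.57 and 2.86 CPM in KO and to 13.6 and 1.82 CPM in WT, with Pdgfra, Lum, Dpt, Pdpn and Grem1 missing from at least 1 library. Smooth muscle genes reached at most 5.07 CPM, macrophage genes 10.01 CPM and enteric neuron and glia genes 2.27 CPM in any library. Endothelial genes summed to 1.71 and 1.84 CPM in KO and to 41.6 and 2.01 CPM in WT, of which Cdh5 alone made 35.6 CPM in WT replicate 1. T and natural killer cell genes summed to 30.5 and 277 CPM in KO and to 50.8 and 35.8 CPM in WT. B and plasma cell genes reached at most 12.2 CPM. Colon genes were low for the labelled tissue, at 343 and 238 CPM in KO and 181 and 148.5 CPM in WT. Car1, Aqp8, Hoxb13, Hoxd13 and Insl5 were each missing from at least 1 library. In contrast, 8 small intestine genes summed to 15830 and 14750 CPM in KO and to 20220 and 9073 CPM in WT. These genes did not move together between libraries. Fabp6 was at 894 and 118 CPM in KO and 422 and 2453 CPM in WT. Gata4 was at 156 and 165 CPM in KO and 134 and 27.3 CPM in WT. Whether this bears on the 5 genes was not tested. Xist stood at 197 and 0.954 CPM in KO replicates 1 and 2, and at 968 and 0.195 CPM in WT replicates 1 and 2, with the Y-linked gene Ddx3y listed in both replicates 2 alone. Each genotype thus held 1 library with the female pattern, replicate 1, and 1 with the male pattern, replicate 2. Ratios between libraries of the same number, which share the pattern, are given below.

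Of the 5 genes, Lgr5 was far lower in KO adenomas, Rnf43 stood at about 47.3% of its WT level, Znrf3 was somewhat lower, and Lgr4 differed little. Lgr6 was listed only in replicate 1 of each genotype, with 4 counts in KO and 12 counts in WT. Lgr4, Lgr5, Rnf43 and Znrf3 were listed in all 4 libraries and were tested. None was called by edgeR's quasi-likelihood test at an adjusted p under 0.05, a threshold that 0% of 12769 tested genes passed as lower in KO and 0.00783%, 1 gene, as higher. At an unadjusted p under 0.05, 2 of the 4 were lower (Lgr5 and Rnf43), where 8.69% of all tested genes were. DESeq2 called the same 2 genes as lower, at a rate of 3.32% over all genes. The KO pair lay wholly below the WT pair in all 4 tested genes, as it did in 24.6% of all tested genes.

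**Figure D1:**
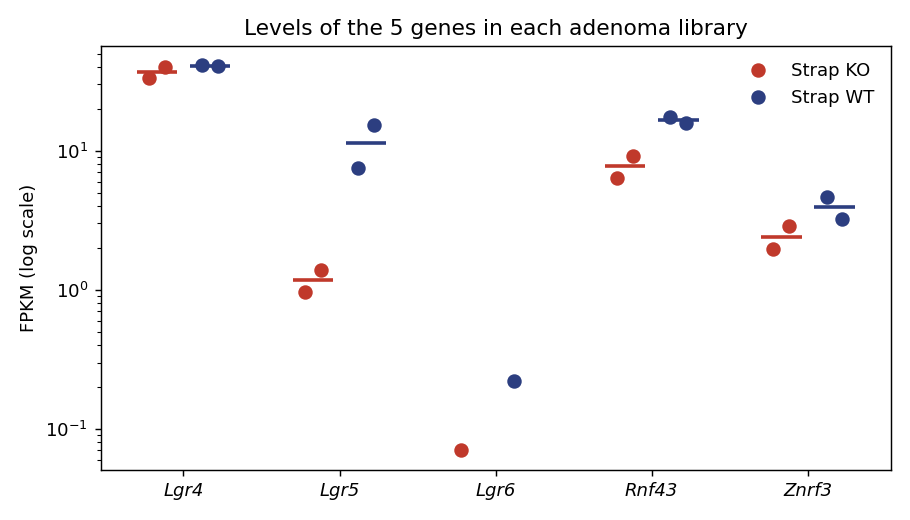
FPKM on a log axis of each gene in KO (red) and WT (blue) libraries, with replicate 1 left of replicate 2 and a line at the mean of each pair. Lgr5 sits at 0.97 and 1.4 FPKM in KO and at 7.47 and 15.3 FPKM in WT, while Lgr4 lies between 33.4 and 41.3 FPKM in all libraries; Lgr6 has a point only where it was listed.

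Lgr5 lies on chromosome 10 from 115450314 to 115587780 on the minus strand (mm10), and its deposited transcript, NM_010195, has 18 exons. It had 71 and 91.7 expected counts in KO replicates 1 and 2, against 537 and 1088 in WT replicates 1 and 2. As FPKM this was 0.97 and 1.4 in KO and 7.47 and 15.3 in WT. Both KO libraries were low and close to each other, and the lower WT library was still above both. The mean was 5.56 ± 1.004 CPM in KO and 52.5 ± 25.6 CPM in WT (SD, n = 2 each), so that 10.6% of the WT level was measured in KO. The log2 fold change was -3.24 (SE 0.41, 95% interval -4.26 to -2.22), with an adjusted p of 0.1002 in edgeR over all genes and 4.37e-10 in DESeq2. Of all tested genes 202 had a lower log2 fold change, and 31 had a smaller p, 11 of them lower in KO.

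The spread of Lgr5 lay between the WT libraries. Counting error alone gave 95% Poisson intervals of 55.5 to 89.6 for the 71 counts of KO replicate 1 and 74.2 to 113 for the 92 rounded counts of KO replicate 2, which overlap. In WT the intervals were 492.5 to 584 and 1024 to 1155, which do not. Such intervals cover counting error only. Between libraries of the same number, the log2 ratio of KO over WT was -2.83 for replicate 1 and -3.49 for replicate 2. With the replicate number, which here coincides with the Xist pattern, as a term in edgeR, the log2 fold change was -3.16 (adjusted p = 0.00775). With crossed numbers, which mix the Xist patterns and were added after seeing the data, it was -3.15 (adjusted p = 0.0304 in edgeR). Passing the threshold was thus not particular to the matched numbers. Over all alternatives the adjusted p of Lgr5 ran from 4.37e-10 to 0.66. Without WT replicate 2 the log2 fold change was -2.63 (adjusted p = 0.036 in edgeR), and without WT replicate 1 it was -3.68 (adjusted p = 0.0903). Paneth cell genes, which mark the neighbours of the Lgr5 cell at the crypt base, were also highest in WT replicate 2: the 8 genes summed to 12960 and 8095 CPM in KO, against 10400 and 28160 CPM in WT. Their part in the Lgr5 difference was not tested, and in bulk RNA fewer cells of a type cannot be told apart from less RNA per cell. Lgr5 overlaps A930009A15Rik on the opposite strand, a gene listed only in WT replicate 1, with 2 counts.

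Lgr4, the most abundant of the 5, lies on chromosome 2 from 109917647 to 110014257 on the plus strand, with 18 exons in NM_172671. It had 2621 and 2818 expected counts in KO, against 3193 and 3123 in WT. Its FPKM was 33.4 and 39.9 in KO and 41.3 and 40.8 in WT. The KO libraries were slightly below the WT libraries, by less in replicate 2 than in replicate 1 (log2 ratios of -0.08 and -0.19 between libraries of the same number). The log2 fold change was -0.14 with a 95% interval of -0.63 to 0.36 (adjusted p = 0.773 in edgeR), so a difference of either sign within those bounds could not be told from none. Scaled to the epithelial marker genes, Lgr4 came to 15.2% and 22.2% of their geometric mean in KO and 19.5% and 17.1% in WT. The groups then overlapped, and the fold change turned to 0.03.

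Lgr6, which marks stem cells of the skin, lies on chromosome 1 from 134983300 to 135105374 on the minus strand. It had 4 counts in KO replicate 1 and 12 counts in WT replicate 1, and it was not listed in either replicate 2. The corresponding levels were 0.07 FPKM in KO and 0.22 FPKM in WT. Their 95% Poisson intervals, 1.09 to 10.2 counts in KO and 6.20 to 21.0 counts in WT, overlap. The gene did not pass the filter on low counts, and no difference was detectable at this depth.

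Rnf43 lies on chromosome 11 from 87663087 to 87735539 on the plus strand, with 10 exons in NM_172448. It had 428 and 556 expected counts in KO, against 1159 and 1043 in WT. Its FPKM was 6.38 and 9.23 in KO and 17.5 and 15.97 in WT. The WT libraries were close together and both KO libraries were well below them. The mean was 33.6 ± 6.12 CPM in KO and 71.0 ± 4.73 CPM in WT (SD, n = 2 each). The log2 fold change was -1.08 (SE 0.22, 95% interval -1.62 to -0.55), with an adjusted p of 0.175 in edgeR over all genes and 0.00665 in DESeq2. Between libraries of the same number the log2 ratio was -1.35 for replicate 1 and -0.84 for replicate 2. An intronic transcript on the same strand, 1110028F11Rik, had at most 38 counts in a library.

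Znrf3, the paralogue of Rnf43, lies on the same chromosome from 5276329 to 5444847 on the minus strand. It had 207 and 287 expected counts in KO, against 508 and 342 in WT. Its FPKM was 1.96 and 2.86 in KO and 4.67 and 3.23 in WT. The groups did not overlap, but KO replicate 2 and WT replicate 2 were near each other. The log2 fold change was -0.70 (SE 0.31), with a 95% interval of -1.46 to 0.06 and an adjusted p of 0.341 in edgeR. The log2 ratio between libraries of the same number was -1.205 for replicate 1 and -0.18 for replicate 2. The tables average its length over NM_001080924 and NM_001290501, and that length was 6790 and 7178 bases in KO, against 7088 and 6990 bases in WT. Scaled to the epithelial genes Znrf3 came to 1.198% and 2.26% in KO and 3.11% and 1.87% in WT, so the groups overlapped.

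The RefSeq promoter table (GRCm38.p6) held 3 of the 5 genes, Lgr4, Lgr6 and Rnf43. The 250 bases before the start of Rnf43, which was lower in KO, and of Lgr4, which differed little, are shown because these genes stood apart in the comparison. They lie at chr11:87662837-87663086 and chr2:109917397-109917646, both on the plus strand. The Rnf43 window precedes the start of the deposited transcript. The table holds another Rnf43 start, with its window at chr11:87699647-87699896, which was 45.2% G and C and held none of the motifs searched below. Capitals mark CCAAT boxes.
Rnf43: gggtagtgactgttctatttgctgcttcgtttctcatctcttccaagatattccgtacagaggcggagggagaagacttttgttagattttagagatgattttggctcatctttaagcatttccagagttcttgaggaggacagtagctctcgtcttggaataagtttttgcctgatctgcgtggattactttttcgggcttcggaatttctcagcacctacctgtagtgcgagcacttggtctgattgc
Lgr4: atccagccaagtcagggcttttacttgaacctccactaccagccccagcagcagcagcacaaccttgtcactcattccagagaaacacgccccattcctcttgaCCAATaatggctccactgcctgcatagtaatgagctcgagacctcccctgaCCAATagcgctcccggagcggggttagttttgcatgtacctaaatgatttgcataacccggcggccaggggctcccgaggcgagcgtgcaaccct

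The letters CTTTGAA or CTTTGAT or CTTTGTA or CTTTGTT, the core bound by TCF and LEF factors, were searched on both strands. They were in neither window, and 14.8% of 32851 promoters of the same length held them. The letters CCAAT, bound by NF-Y, stood in the Lgr4 window with their first base 146 and 95 bases before the start. None was in the Rnf43 window, and 33.8% of all promoters held them. The letters GGGCGG of the GC box and TATAAA of the TATA box were in neither window, against 32.7% and 12.4% of all promoters. These are matches of letters only, and the motifs do not overlap each other. The Rnf43 window was 44.4% G and C, and the Lgr4 window 55.6%.

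On the length-scaled FPKM, the order of levels in KO was Lgr4, Rnf43, Znrf3, Lgr5 and Lgr6. In WT, Lgr5 stood above Znrf3, with 11.4 ± 5.54 FPKM for Lgr5 and 3.95 ± 1.02 FPKM for Znrf3 (SD, n = 2). WT Lgr5 and WT Rnf43 (16.8 ± 1.10 FPKM) were neighbours that did not differ beyond the spread of Lgr5. In KO, Znrf3 averaged 2.41 ± 0.636 FPKM and Lgr5 1.19 ± 0.304 FPKM, without overlap. Together the 5 genes came to 42.7 and 53.4 FPKM in KO, against 71.2 and 75.4 FPKM in WT.

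The shares of the summed level that differed most between the genotypes were those of Lgr4 and Lgr5. The levels furthest below WT in FPKM were those of Lgr5 and Rnf43. Mean FPKM in KO and WT was 1.185 and 11.39 for Lgr5, 7.805 and 16.75 for Rnf43, and 36.64 and 41.05 for Lgr4. Lgr5 took 2.27% and 2.62% of the summed FPKM in KO, against 10.5% and 20.3% in WT. Lgr4 took 78.0% and 74.8% in KO, against 58.0% and 54.2% in WT, and its own level differed little. Rnf43 took 14.9% and 17.3% in KO and 24.6% and 21.2% in WT. The share of Znrf3 overlapped, with 4.59% and 5.35% in KO and 6.56% and 4.29% in WT.

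**Figure D2:**
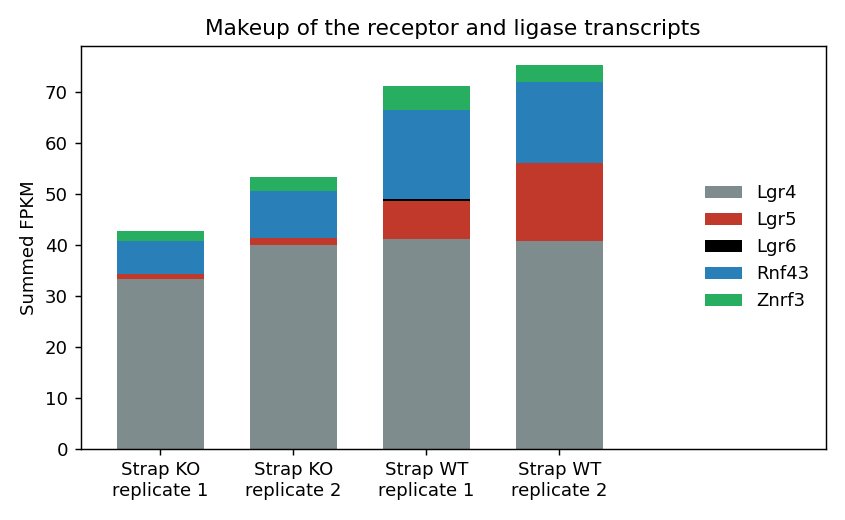
Summed FPKM of the 5 genes in each library, stacked by gene, with the KO libraries left of the WT libraries. The grey Lgr4 block is of like height in all libraries, and the red Lgr5 block is 0.97 and 1.4 FPKM in KO against 7.47 and 15.3 FPKM in WT.

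Ratios between genes do not depend on how libraries are scaled against each other. The FPKM of Lgr5 was 2.91% and 3.51% of that of Lgr4 in KO, against 18.1% and 37.5% in WT, a difference of -3.03 in the mean log2 ratio. For Rnf43 over Lgr4 the values were 19.1% and 23.1% in KO, against 42.5% and 39.1% in WT. Lgr5 was 15.2% of Rnf43 in both KO libraries, against 42.6% and 95.9% in WT, so the KO libraries lay lower in Lgr5 than in Rnf43, each set against WT. Znrf3 over Rnf43 went the other way, with 30.7% and 31.0% in KO and 26.6% and 20.2% in WT. In these 4 ratios, and in Znrf3 over Lgr4 and Lgr5 over Znrf3, the 6 computed, the groups did not overlap. The 6 ratios are built from the same 4 genes and are not independent. No share over other gene pairs was computed. Among single tested genes, the KO pair lay wholly below the WT pair in 24.6% and wholly above it in 25.4%. Each of the 6 ratios gave an exact two-sided permutation p of 0.333. That is the smallest that 2 libraries against 2 allow, so none could pass a threshold, adjusted or not.

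Across the 4 libraries, likeness was measured as the root mean square difference of log2 CPM after centring each gene on its own mean. Rnf43 and Znrf3 were the closest pair of the family at 0.25 log2 units, and Lgr4 and Lgr5 the most distant at 1.56. Lgr5 had few genes near it: 1 of 11219 compared genes lay within 0.25 log2 units, against 300 for Rnf43, 863 for Znrf3 and 4559 for Lgr4. That gene was Cyp2w1, a cytochrome P450 gene, at 0.273 and 0.273 CPM in KO and 2.12 and 4.15 CPM in WT (distance 0.19). Its KO values rest on few reads, as Lgr6 had 4 counts at 0.273 CPM in KO replicate 1. The KO part of the Cyp2w1 profile is therefore imprecise. Next came Adgrd1, an adhesion receptor gene, at 2.53 and 4.63 CPM in KO and 21.5 and 29.1 CPM in WT, and Mfhas1, at 3.62 and 2.73 CPM in KO and 18.7 and 28.2 CPM in WT. The genes most like Rnf43 were Pik3ip1, Ubxn10 and Zfp36l1, all within 0.05. Those most like Znrf3 were Cpeb4, Rundc3b and Dock6, within 0.03, and those most like Lgr4 were Gtf2ird1, Fam222b and Dhx15, within 0.01. With 4 libraries this describes their profiles and carries no test.

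The ligands of the Lgr receptors were hardly present. Rspo1 had 1 and 3 counts in KO replicates 1 and 2 and was not listed in WT. Rspo3 and Rspo4 were listed in WT replicate 1 alone, with 1 and 3 counts, and Rspo2 in no library. None of the 4 was tested. Fibroblasts, a known source of R-spondins in the gut, were also scarce in these libraries by the markers above.

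In most genes of the receptors that Rnf43 and Znrf3 act on, the KO and WT libraries overlapped. Of 11 tested Frizzled and Lrp genes 9 stood lower in KO and 2 stood higher, and their median log2 fold change was -0.49, where the median of all tested genes was 0.00. None was called over all genes, and 2 of the 11 (Fzd1 and Lrp6) were lower at an unadjusted p under 0.05, against 8.69% of all tested genes. Fzd1 was at 0.41 and 0.136 CPM in KO and 6.67 and 9.21 CPM in WT, a log2 fold change of -4.82 (adjusted p = 0.105 in edgeR). It passed the filter on low counts through WT alone and could only be found lower, yet it counts in the shares of this list. Lrp6, a Wnt co-receptor gene, was at 65.8 and 94.3 CPM in KO and 129 and 125 CPM in WT (-0.67, adjusted p = 0.28 in edgeR). Fzd3 was at 1.91 and 0.341 CPM in KO and 6.99 and 3.12 CPM in WT (-2.16, adjusted p = 0.327 in edgeR). Fzd5, by FPKM the most abundant Frizzled gene, was the exception among the 4 with the smallest p. It was at 55.5 and 53.6 FPKM in KO and 41.6 and 41.5 FPKM in WT, a log2 fold change of 0.43 (95% interval -0.13 to 0.99, adjusted p = 0.409 in edgeR). The KO pair lay wholly below the WT pair in 3 of the 11 receptor genes (Fzd1, Fzd3 and Lrp6), a share near the 24.6% of all tested genes. It lay wholly above in 1, Fzd5, against 25.4% of all tested genes.

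Downstream of the receptors, 1 of the 3 Dishevelled genes was higher in KO at an unadjusted p under 0.05, a level that 7.08% of all tested genes reached on that side. Dvl1 was at 102 and 104.5 CPM in KO and 77.1 and 72.9 CPM in WT (0.46, adjusted p = 0.311 in edgeR). Dvl2 had a log2 fold change of -0.45 and Dvl3 of -0.22. The KO pair lay wholly above the WT pair in Dvl1 and wholly below it in Dvl2. Over all tested genes these shares were 25.4% and 24.6%. Among Wnt ligand and secretion genes 8 of 21 were tested, 7 lower and 1 higher, and none was called. At an unadjusted p under 0.05, 1 was lower, Wnt5a, against 8.69% of all tested genes. The KO pair lay wholly below the WT pair in 2 of the 8, Wnt5a and Wnt6, near the 24.6% of all tested genes. It lay wholly above in 0, against 25.4%. Wnt3, which Paneth cells make in the crypt, was at 4.37 and 3.61 CPM in KO and 4.17 and 12.5 CPM in WT. Wls, the carrier that brings Wnt proteins to the surface, was at 43.9 and 24.3 CPM in KO and 26.6 and 83.8 CPM in WT. Both were highest in WT replicate 2, like the Paneth genes, and without that library the log2 fold change of Wls, -0.69 over all libraries, was 0.36. Wnt5a gave 2 counts in KO, all from replicate 1, against 23 and 25 counts in WT. It passed the filter on low counts through WT alone and could only be found lower, yet it counts in the shares of the ligand list. Wnt6 was at 0.82 and 0.409 CPM in KO and 3.21 and 0.973 CPM in WT.

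Among other Wnt target genes 14 were tested, of which 11 stood lower in KO and 3 higher. The median log2 fold change was -0.45, and none was called over all genes. At an unadjusted p under 0.05, 5 were lower and 1, the cyclin gene Ccnd1, higher (366 and 286 CPM in KO, 103 and 221 CPM in WT). Over all tested genes 8.69% were lower and 7.08% higher at that level. Nkd1, Notum and Apcdd1, whose products restrain Wnt signalling, were among the 5, with Tnfrsf19 and Ephb3. Notum had 13 counts in KO, all from replicate 1, against 795 and 25 counts in WT. For Apcdd1 a single KO library, replicate 2, gave 1 count, against 89 and 40 counts in WT. Apcdd1 passed the filter on low counts through WT alone and could only be found lower, yet it counts in the shares of this list. Nkd1 was at 1.37 and 0.545 CPM in KO and 97.7 and 6.42 CPM in WT, so Notum and Nkd1 were high in WT replicate 1 above all. Lgr5 had the opposite order of the WT libraries. Tnfrsf19, a receptor gene of crypt base cells, was at 0.59 and 0.8 FPKM in KO and 4.93 and 2.42 FPKM in WT (-2.39, adjusted p = 0.162 in edgeR). Ephb3, an ephrin receptor gene, was at 17.4 and 19.6 CPM in KO and 34.4 and 31.1 CPM in WT (-0.82, adjusted p = 0.226 in edgeR). The KO pair lay wholly below the WT pair in 6 of the 14 targets and wholly above it in 1, Ccnd1. Over all tested genes these shares were 24.6% and 25.4%. The groups overlapped in Axin2 (log2 fold change -0.43), Sp5 (-0.68), Tcf7 (-0.34), Ascl2 (-0.04), Myc (-0.04), Cd44 (0.09) and Ephb2 (0.09).

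Other crypt base stem cell genes varied widely in their difference. Of 17 tested genes 14 stood lower in KO and 3 higher. Their median log2 fold change was -0.38, but 0.10 without WT replicate 2. None was called over all genes, and 5 were lower at an unadjusted p under 0.05: Gkn3, Phlda1, Tnfrsf19, Sorl1 and Tgif1. Over all tested genes 8.69% were. The KO pair lay wholly below the WT pair in 7 of the 17 and wholly above it in 0. Over all tested genes these shares were 24.6% and 25.4%. Phlda1 was at 14.75 and 16.8 CPM in KO and 56.9 and 39.1 CPM in WT (-1.60, adjusted p = 0.131 in edgeR). Sorl1 was at 38.8 and 41.5 CPM in KO and 65.3 and 73.2 CPM in WT (-0.79, adjusted p = 0.211 in edgeR). Gkn3 gave 1 count in KO, from replicate 1, against 719 and 28 counts in WT. It passed the filter on low counts through WT alone, so it could only be found lower. It is counted among the 5 and the 7 above. Outside the 7 the groups overlapped, in genes named here after their values were seen. These were Smoc2, Olfm4, Ascl2, Cdca7, Cdk6, Rgmb, Lrig1, Bmi1, Hopx and Tert. Smoc2 was at 87.8 and 66.8 CPM in KO and 66.3 and 97.5 CPM in WT. Olfm4 was at 176 and 348 CPM in KO and 189 and 876 CPM in WT, highest in WT replicate 2.

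**Figure D3:**
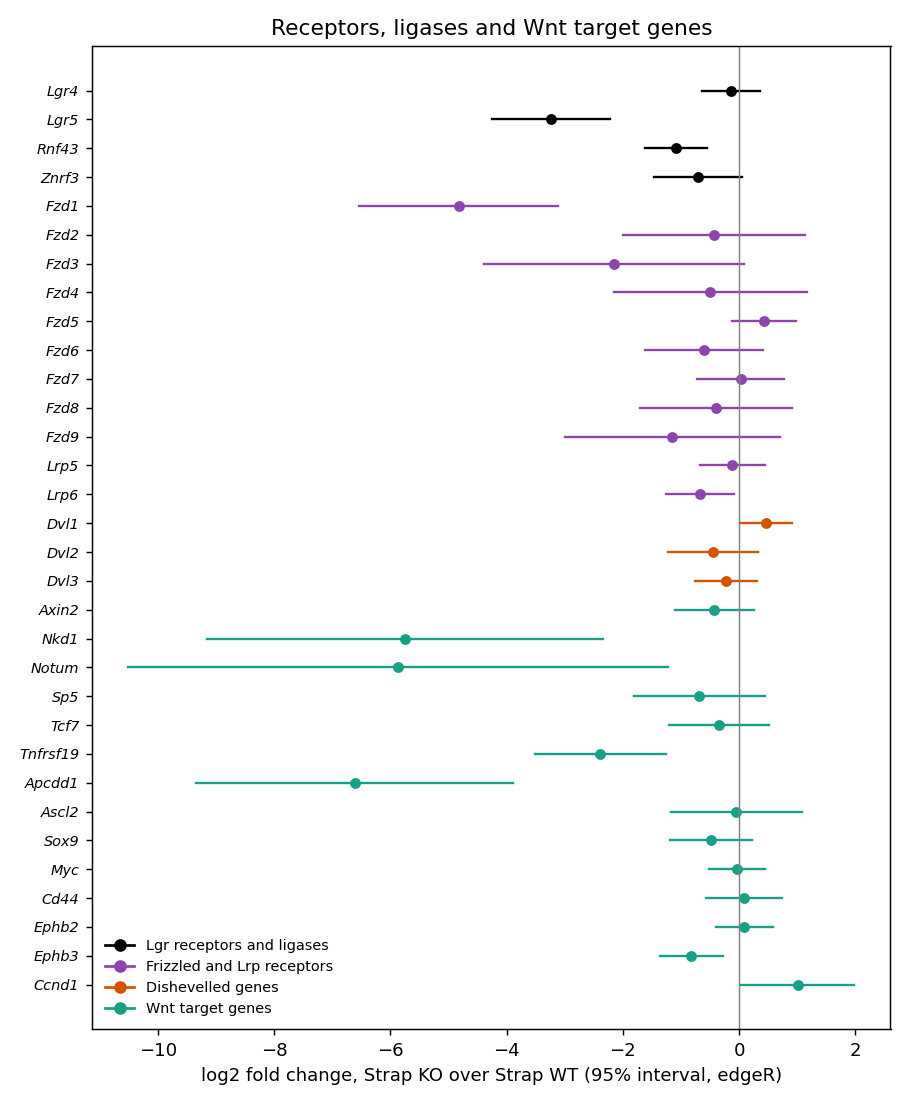
Log2 fold change of KO over WT with 95% intervals from edgeR for every tested Lgr, ligase, Frizzled, Lrp, Dishevelled and Wnt target gene. The interval of Lgr5 (-4.26 to -2.22) and that of Rnf43 (-1.62 to -0.55) lie left of 0, and that of Lgr4 (-0.63 to 0.36) spans it. Those of Fzd1, Lrp6, Nkd1, Notum, Tnfrsf19, Apcdd1 and Ephb3 also lie left of 0. Those of Ccnd1 (0.04 to 1.98) and Dvl1 (0.009 to 0.92) lie right of 0, and that of Fzd5 (-0.13 to 0.99) lies mostly so.

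**Figure D4:**
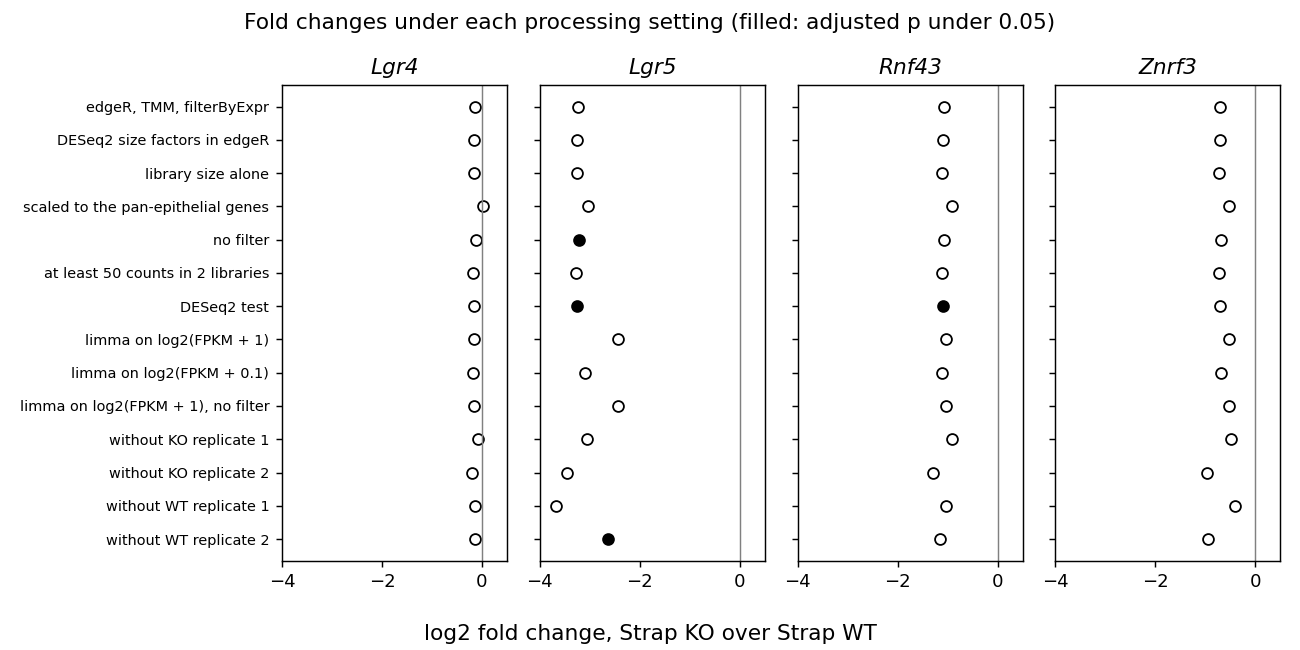
Log2 fold change of KO over WT of the 4 tested genes under the listed processing settings, with filled points where the adjusted p was under 0.05. Lgr5 lies between -3.68 and -2.43 and Rnf43 between -1.30 and -0.90 throughout, while Lgr4 reaches 0.03 when scaled to the epithelial genes.

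The plot of fold changes by processing setting shows that Lgr5, Rnf43 and Znrf3 kept a lower level in KO in every setting drawn. Of the settings drawn, Lgr5 passed the threshold without a filter on low counts, in DESeq2 and without WT replicate 2, and it also passed with the replicate number as a term. Rnf43 passed it in DESeq2 alone, and Znrf3 and Lgr4 in none of these.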

How the data were processed

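Per the submitters' processing notes, Bowtie2 2.2.5, RSEM 1.2.12 and the mouse build mm10 were used, with no role or order given. The deposited tables give, per the file headers, RSEM expected counts, FPKM and a transcript length, which is in bases and an average over isoforms (a value in no other unit). The lowest listed FPKM was 0.01, and no upper limit is given for a gene that is not listed. Whether counting used strand is not stated in these sources. RSEM shares reads between similar transcripts, which makes some counts fractional.

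The tables were joined on gene identifiers (pandas 2.3.3). A row that names no gene (1 per table, up to 0.000233% of counts) was dropped. The expected counts deposited by the authors were rounded to whole numbers and fitted over all genes with edgeR 4.0.16 in R 4.3.3 (quasi-likelihood test, genotype as the only term, TMM scaling, filterByExpr), which left 12769 genes. The fit had 2 residual and 3.9 prior degrees of freedom and a common biological coefficient of variation of 32.5%. p values were adjusted by Benjamini-Hochberg and called under 0.05. The script was tested on simulated data. Replicates differed far beyond counting noise (chi-square per degree of freedom 62.2 in KO and 124 in WT, genes with at least 10 summed counts), so none was counted once.

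The genes and all lists were chosen with earlier results of these data known. Genes named by rule were the 5 members, Strap and the 4 genes of each pathway list with the smallest p. The 3 genes most like each member (mean FPKM at least 1) were named too. Others are named for small counts, as markers, for overlap with a member, or for an unadjusted p under 0.05 (Ccnd1 and Tgif1 among them). The stem cell genes and the Wnt targets with overlapping groups were named after their values were seen. Coordinates are from RefSeq GRCm38.p6 and exon numbers from GENCODE, the same build as mm10. Alternatives were other scalings, filters, DESeq2 1.42.0, limma 3.58.1 on log2(FPKM + 1) and log2(FPKM + 0.1), a replicate block and each library left out.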

Additional observations from a re-analysis of the deposited data

How the results depend on the processing

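Of 60 recomputed fold changes of the 4 tested genes, 53 kept their direction and their side of the threshold, 6 passed it and 1 turned. Scaled to the epithelial marker genes, the median of all genes moved to 0.16 and Lgr4 to 0.0278, which is -0.13 relative to that median. Lgr5 passed the threshold without a filter (-3.22), in DESeq2 (-3.26) and with the replicate block (-3.16), and Rnf43 in DESeq2 (-1.10). Leaving out each library in turn gave Lgr5 -3.68 to -2.63, Lgr4 -0.21 to -0.09, Rnf43 -1.30 to -0.91 and Znrf3 -0.97 to -0.41, with 0 to 1 of the members called. The labels do not pair the replicate numbers, but both replicates 1 had the female and both replicates 2 the male pattern of Xist and Ddx3y, so the replicate block is also a block for sex and the crossed one mixes the sexes. Deviations of libraries with the same number correlated at -0.13. The replicate block called 46 genes higher and 70 lower, with 1 member among them. A block with crossed numbers, added after seeing the data, called 65 higher and 99 lower, with Lgr5 among the lower (-3.15).

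Of all genes, edgeR called 1 higher and 0 lower. The counts were 19 higher and 8 lower without a filter, 233 and 424 in DESeq2 (2 members, Lgr5 and Rnf43), 4 higher with epithelial scaling, 0 higher with library size alone and 0 in limma, and 0 to 41 higher and 0 to 133 lower with a library left out, all of them without WT replicate 2. Called as lower were 1 of the receptor genes in DESeq2 and with either block, 3 Wnt targets in DESeq2, 2 with the block and 1 with the crossed one, and 4 stem cell genes in DESeq2, 1 with the block and 2 with the crossed one; with a library left out, 0 to 2 of each of the last 2 lists were.

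List medians moved to -0.26 (receptors, limma on log2(FPKM + 1) with and without a filter), -0.056 (Dishevelled, epithelial scaling), -0.39 and -0.63 (Wnt ligands, limma with pseudocounts of 1 and 0.1) and -0.30 (Wnt targets, epithelial scaling). With a library left out the ligand median lay between -0.92 and -0.42 and the stem cell median between -0.68 and 0.10. Wls lay between -1.31 and 0.36 with a library left out, turning without WT replicate 2. In CPM in place of FPKM the share of Rnf43 was 13.8% in KO and 20.0% in WT, and that of Znrf3 6.93% and 7.75%. Mean distances to the 3 most alike genes became 0.014 for Lgr4 and 0.039 for Znrf3 on log2(FPKM + 0.1). The cause of these moves was not tested. Depth limits Lgr6 and the R-spondin genes, which had at most 12 counts in a library.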
